A study of Homo sapiens and Mus musculus with 74 samples.

Results

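The myelin genes examined here were Mbp, Cnp, Mag, Mog, Mobp, Mal and Cldn11, which are 7 of the 22484 genes with a coding transcript in the mouse count table. Rows of that table were matched to these symbols by transcript identifier in GENCODE M21, which gave 40 of its 142604 transcripts, and each gene was read from its transcript with the longest protein. The mice were of the C57BL/6J strain, and Rpl41, which encodes a very small, basic ribosomal protein that lies at a bridge between the subunits, had its whole coding sequence removed by CRISPR-Cas9 in the zygote (KO) or was intact (WT). Every cell type of a KO mouse therefore carried the deletion, and a change in brain cannot be assigned to oligodendrocytes from the genotype alone. Lysates of brain and kidney from 10-week-old males gave RNA-seq of poly(A) RNA and Ribo-seq, which sequences the mRNA fragments that ribosomes protect (footprints, RPF), and kidney also gave disome-seq, which sequences fragments protected by stacked ribosomes. Each genotype, tissue and assay had 3 libraries. The labels number the libraries without tying them to animals, so p-values measure the spread between libraries, which may be technical in part.

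Myelin is the membrane sheath that oligodendrocytes wrap around axons in the central nervous system. Its proteins divide into those of compact myelin, where the cytoplasm has been squeezed out between layers (Mbp, Mobp), those of the non-compact and axon-facing layers (Cnp, Mag), a protein of the outermost surface (Mog), a tight junction protein that seals the wraps (Cldn11) and a tetraspan protein that sorts membrane on its way to the sheath (Mal). In adult brain the sheath is maintained with long-lived protein, and the mRNA of Mbp is carried into the processes and translated beside the membrane. Mal is also a known component of apical membrane sorting in kidney tubule cells, whereas Mog, Mag and Mobp are used as markers of oligodendrocytes.

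Total counts, summed over transcripts so that a read shared by isoforms enters each of them, ranged from 84433838 to 123745890 in brain RNA-seq, while brain Ribo-seq held 9498663 to 35881929, kidney RNA-seq 44998381 to 55077048, kidney Ribo-seq 11036643 to 42452425 and disome-seq 1187636 to 3018963. The Rpl41 count matched the label in every RNA-seq and Ribo-seq library of brain and kidney, disome-seq not being checked, with 8981 to 12199 reads in WT brain RNA-seq and 6 to 12 in KO. In kidney RNA-seq, KO replicates 2 and 3 stood apart, with 1.76% and 1.67% of counts on mitochondrial rRNA against 0.436% to 0.962% in the other 4 libraries. In brain RNA-seq, WT replicate 3 and KO replicate 1 stood apart in how far reads reached the short transcripts of the myelin genes, as described with those transcripts. Both also had the lowest shares of mitochondrial rRNA, 0.381% and 0.380%, against 0.488% to 0.689% in the other brain RNA-seq libraries. Levels are given as CPM, counts scaled by the total of their library, and a gene was called changed where its p under the quasi-likelihood test of edgeR, adjusted by the Benjamini-Hochberg method across every transcript in the fit, was under 0.05.

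In the annotation on GRCm38, Mbp (ENSMUSG00000041607) spans chromosome 18 from 82475146 to 82585637 on the plus strand and is listed with 16 transcripts, the most of the 7 genes. Its longest protein belongs to Mbp-201, a golli row that shares downstream exons with the classic forms, so reads of those forms also count toward it. Cnp (ENSMUSG00000006782) spans chromosome 11 from 100574904 to 100591729 on the plus strand, and Mobp (ENSMUSG00000032517) chromosome 9 from 120149707 to 120181484 on the plus strand. Mag (ENSMUSG00000036634) spans chromosome 7 from 30899176 to 30914873, Mog (ENSMUSG00000076439) chromosome 17 from 37010743 to 37023398 and Mal (ENSMUSG00000027375) chromosome 2 from 127633226 to 127656695, all on the minus strand. Cldn11 (ENSMUSG00000037625) spans chromosome 3 from 31149920 to 31164324 on the plus strand and is the single member with 1 listed transcript. The encoded proteins are short for the most part: 5 of them lie between 153 residues (Mal) and 250 (the longest Mbp form), Cnp has 420 and Mag 627, against a median of 381 over all coding genes. Of these, Mag and Cnp alone lie above that median.

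The label was first checked by comparing WT brain with WT kidney. Of the 7 genes, 6 had higher mRNA in brain and 7 had more footprints in brain, with Mal the exception in mRNA. The background for these counts was wide, since 64.1% of all transcripts tested differed between the tissues in RNA-seq and 70.9% in Ribo-seq. A call by itself therefore does not set these genes apart, and the size of each difference is given. The mRNA of Mbp was 10.75 higher in brain on the log2 scale (95% interval 9.93 to 11.57, adjusted p = 8.2e-09), that of Cldn11 6.02 higher (5.47 to 6.58, adjusted p = 1.9e-08) and that of Cnp 4.91 higher (4.44 to 5.37, adjusted p = 2.3e-08). The values of Mbp and Cnp depend on the row. Mbp-205 gave 4.32 (3.81 to 4.84) and Mbp-208 1.73 (0.20 to 3.27), while the remaining Mbp rows lay between 10.75 and 12.14. Cnp-202 gave 2.855 (2.44 to 3.27), and the remaining Cnp rows lay between 4.91 and 6.01. For scale, the median transcript was 0.20 higher in brain in this comparison, and 0.45 higher when libraries were scaled by their totals alone.

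Mog, Mag and Mobp were close to absent from kidney. Mobp had 0 RNA-seq reads in all 3 WT kidney libraries against 8612 in WT brain, which puts its mRNA at least 500-fold higher in brain when each kidney library is set to a floor of 3 counts. Mog had 3 RNA-seq reads over the WT kidney libraries and was at least 639-fold higher in brain by the same floor. Mag had 7 reads against 20717, a ratio of 1551 in CPM with a counting interval of 753 to 3858. In footprints Mog had 1 kidney read and Mobp 2, at least 156-fold and at least 139-fold below brain, and Mag had 14, a ratio of 495 (295 to 906). Intervals and floors of this kind cover counting error only, since reads without molecular identifiers are not independent molecules. A higher level in brain does not by itself mark oligodendrocytes: in the same mRNA comparison 10 of 10 neuron markers (median 11.18) and 7 of 8 astrocyte markers (median 6.09) were also higher in brain, against a median of 10.29 for the 7 genes.

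Mal was different. Its mRNA stood at 99.5, 137 and 105 CPM in the 3 WT brain libraries and at 91.4, 91.4 and 93.2 CPM in the 3 WT kidney libraries. All brain libraries were above all kidney libraries in CPM, but after TMM scaling the log2 difference was 0.06 (95% interval -0.35 to 0.48, adjusted p = 0.79), and it was 0.31 (adjusted p = 0.10) with totals alone. Its footprints were at 37.3, 51.8 and 45.1 CPM in brain and 30.4, 31.4 and 29.5 CPM in kidney, a log2 difference of 0.46 (0.16 to 0.77, adjusted p = 0.0097). Whole tissue was sequenced, so a level reflects how many cells express a gene as well as how much each holds, and fewer cells and less RNA per cell cannot be told apart in any of these comparisons.

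**Figure D1:**
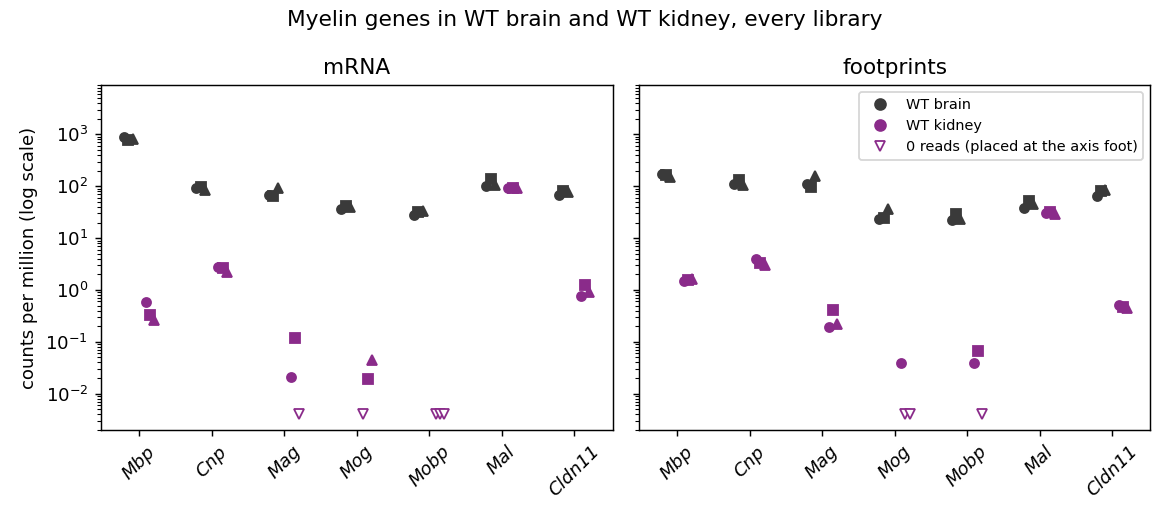
CPM on a log scale of each myelin gene in mRNA (left) and footprints (right), with a point for each of the 3 WT brain and 3 WT kidney libraries and open triangles at the foot of the axis for libraries with 0 reads. Mal is at a like level in both tissues, from 91.4 to 137 CPM in mRNA, while Mog, Mag and Mobp in kidney are at 0 or close to it.

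The proximal promoters are shown for 2 pairs of genes that differ in this respect: Mal and Cnp, which kidney libraries also contain, and Mobp and Mog, which they hardly contain. Each line is the 150 bases that precede the annotated start of the transcript with the longest protein, read 5′ to 3′ on the strand of the gene from GRCm38.p6, and no exon of another annotated transcript reaches into any of the 4 windows. The windows are chr2:127656696-127656845 (minus strand) for Mal, chr11:100574754-100574903 (plus strand) for Cnp, chr9:120149557-120149706 (plus strand) for Mobp and chr17:37023399-37023548 (minus strand) for Mog. Capitals mark matches on either strand to TATAAA, the TATA box, to CCAAT, to the GC box GGGCGG, to ACAAAG, a core bound by SOX factors, and to CANNTG, the E-box bound by basic helix-loop-helix factors.
Mal: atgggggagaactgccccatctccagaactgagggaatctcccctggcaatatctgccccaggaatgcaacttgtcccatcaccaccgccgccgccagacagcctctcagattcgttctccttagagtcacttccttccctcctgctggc
Cnp: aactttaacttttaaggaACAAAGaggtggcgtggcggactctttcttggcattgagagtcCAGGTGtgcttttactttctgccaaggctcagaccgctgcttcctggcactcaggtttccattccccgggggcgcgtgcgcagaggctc
Mobp: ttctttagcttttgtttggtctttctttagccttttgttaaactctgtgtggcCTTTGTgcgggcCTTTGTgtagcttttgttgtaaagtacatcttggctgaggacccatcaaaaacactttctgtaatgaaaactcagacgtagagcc
Mog: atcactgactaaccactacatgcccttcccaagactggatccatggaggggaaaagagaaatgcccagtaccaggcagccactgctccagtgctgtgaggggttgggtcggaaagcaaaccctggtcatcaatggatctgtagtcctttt

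Mobp held 2 matches to ACAAAG, both on the opposite strand, and Cnp held 1 on its own strand together with 1 E-box match. Mal and Mog held none of the 5 motifs in this window. Among 22467 promoters of the same length, 8.81% held ACAAAG, 44.8% CANNTG, 26.5% CCAAT, 36.2% GGGCGG and 7.58% TATAAA, and these matches are descriptions of letters and not of binding. In base composition Mobp was at 40.7% GC and Mog at 52.0%, with 2 and 1 CpG pairs. Cnp was at 54.7% GC with 7 CpG pairs and Mal at 58.0% with 4, against medians of 56.7% and 6 over all promoters read. Over all 7 genes the windows held 14 CpG pairs for Mbp, 13 for Cldn11, 7 for Cnp, 4 for Mal, 2 each for Mag and Mobp and 1 for Mog. The 3 genes that kidney hardly contains thus had the 3 lowest numbers, which is a description of 7 windows with no test. The windows of Mbp and Mag overlap exons of other transcripts of the same gene. That of Mbp lies before the golli start and not before the downstream start of the classic forms. That of Mag lies inside the gene, since Mag-207 begins at 30914308 and the gene reaches 30914873. The ordering therefore depends on the row chosen for these genes.

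Within WT brain the 7 genes covered a wide range. Per kilobase of transcript, Mbp mRNA averaged 330 CPM ± 25.8 (SD, n = 3), which placed it 29th of 22484 genes. Mal at 41.0 ± 7.2, Cldn11 at 40.6 ± 3.34, Cnp at 39.0 ± 2.46 and Mag at 37.5 ± 8.1 CPM per kilobase followed, and the ranges of neighbours in this group overlapped, so their order is not resolved. Mog at 23.4 ± 1.63 and Mobp at 20.3 ± 2.09 CPM per kilobase were lowest and overlapped each other, while Mag and Mog did not. The low place of Mobp depends on the row. Mobp-201, which represents it, had 2533 to 3069 RNA-seq reads in WT brain, while Mobp-204 (2609 nt) had 27628, 28199 and 22219. In footprints per kilobase of coding sequence the order was Mbp (218 ± 13.1), Cldn11 (124 ± 19.0), Mal (97.5 ± 15.8), Cnp (93.3 ± 11.4), Mag (64.4 ± 17.3), Mobp (49.0 ± 7.09) and Mog (37.8 ± 9.05). Breaks without overlap lay between Mbp and Cldn11 and between Cnp and Mag. Mog, the lowest in footprints, was still 1260th of 22484 genes.

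Footprints relative to mRNA, the usual reading of translation efficiency (TE), spread the genes in another order. The value was log2 of the footprint CPM of each Ribo-seq library over the mean RNA CPM of its genotype, minus the median of all genes. WT brain values averaged 0.76 ± 0.35 for Mag, 0.45 ± 0.20 for Cnp, 0.11 ± 0.24 for Cldn11, -0.22 ± 0.23 for Mobp, -0.43 ± 0.32 for Mog, -1.25 ± 0.26 for Mal and -2.23 ± 0.10 for Mbp (SD, n = 3 Ribo-seq libraries). These SDs and the percentile ranges hold the spread of Ribo-seq alone and leave out that of RNA-seq. Mbp thus stood between percentile 2.01 and 2.73 of all genes, and Mag between 69.3 and 87.0. These values follow the row that represents the gene. Mbp-201, a row of 2492 nt that holds the long untranslated end, gave a footprint to mRNA ratio of 0.199, while Mbp-209, a row of 638 nt that is almost all coding sequence, gave 1.21. Mal-202 (2778 nt) gave 0.390 and Mal-201 (486 nt) 2.42, and Mog-201 (1704 nt) gave 0.690 and Mog-202 (627 nt) 1.80. The low values of Mbp and Mal were thus seen on the long rows and not on the short ones. Mobp-201 (1536 nt) gave 0.796 and Mobp-206 (435 nt) 0.730, but Mobp-204 (2609 nt) gave 0.091, below Mbp-201. The place of Mobp in the order above therefore also depends on the row.

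The short rows also showed how unevenly RNA-seq reads covered these genes from library to library. Mag-205 is a row of 635 nt, against 2434 nt for Mag-203, and its RNA-seq count was 11.0%, 13.3% and 19.1% of the Mag-203 count in WT brain replicates 1 to 3 and 16.6%, 6.56% and 8.21% in KO replicates 1 to 3. WT replicate 3 and KO replicate 1 were thus the highest, and KO replicates 2 and 3 the lowest. Mbp-209 against Mbp-216 gave 14.5%, 15.1% and 21.6% in WT and 19.4%, 12.2% and 13.6% in KO. The same ordering of libraries held for Mal-201 against Mal-202, with 9.79%, 10.5% and 15.4% in WT and 13.2%, 7.56% and 8.54% in KO. In Ribo-seq the corresponding shares were narrower, from 30.8% to 34.0% for the Mag rows, from 67.8% to 74.8% for the Mal rows and from 99.9% to 101% for the Mbp rows, each row being counted separately. Within these narrow ranges the 3 WT libraries lay above the 3 KO libraries for Mag (32.3% to 34.0% against 30.8% to 31.5%) and for Mal (71.9% to 74.8% against 67.8% to 71.1%), a difference that was not tested.

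**Figure D2:**
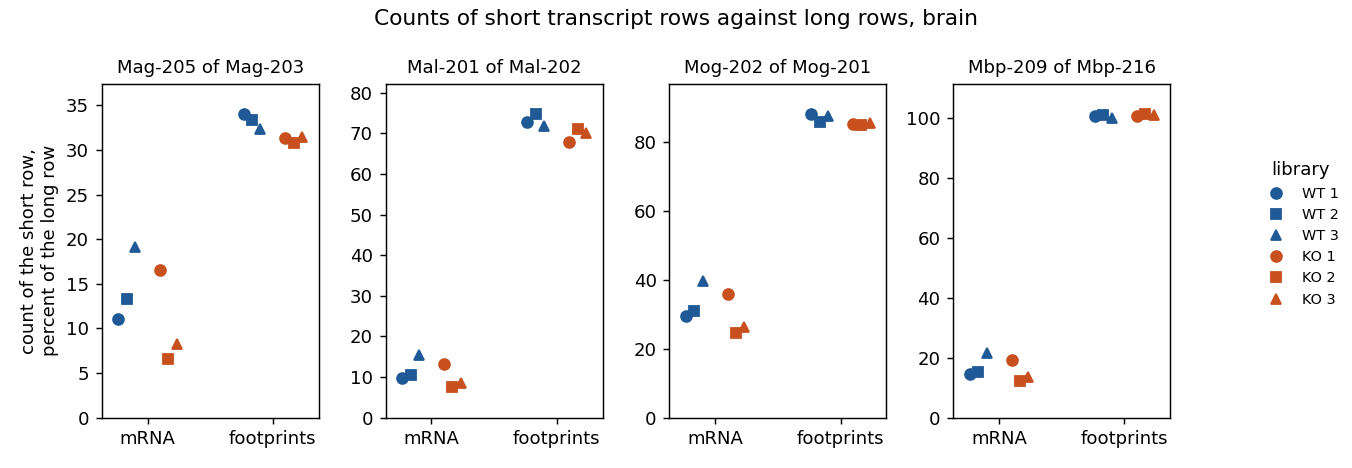
Count of a short transcript row as a percentage of the count of a long row of the same gene, for 4 genes in brain, with a point for each WT (blue) and KO (orange) library in mRNA and footprints. In mRNA, WT replicate 3 and KO replicate 1 are the 2 highest points in each panel (19.1% and 16.6% for Mag-205), while footprint shares differ less between libraries (30.8% to 34.0% for Mag-205).

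Whether loss of Rpl41 changed the myelin mRNAs of the brain was asked first. No member was called in brain RNA-seq (0 of 7), where 0.0134% of 89237 transcripts were called. An unadjusted p under 0.05 was found for 1 of the 7 and for 3087 of all 89237 transcripts. DESeq2 also called 0 of 7. The log2 fold changes of KO over WT ranged from -0.06 for Mobp to 0.31 for Cldn11 with a median of 0.15, against a median of -0.02 over all transcripts, and 5 of the 7 were positive. The median of the 7 was 0.065 without KO replicate 2, 0.22 without KO replicate 1 or WT replicate 2, 0.067 with library size alone, 0.052 with 1 transcript per gene and 0.033 with counts summed per gene. The widest 95% interval was that of Mbp, whose mRNA was at 895, 772 and 802 CPM in WT and 708, 851 and 934 CPM in KO. The Mbp groups overlapped, KO replicate 1 being the lowest of the 6 libraries and KO replicate 3 the highest, and the log2 fold change was 0.10 (-0.32 to 0.52, adjusted p = 0.91).

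Cldn11, the claudin of the myelin tight junction, was the member furthest from 0 in mRNA. It was at 69.2, 81.5 and 77.0 CPM in WT brain and at 89.5, 87.7 and 89.9 CPM in KO brain. All KO libraries were above all WT libraries. The log2 fold change was 0.31 (0.03 to 0.59) with an unadjusted p of 0.033, and the adjusted p was 0.90, so the test across all transcripts did not call it. With WT replicate 3 and KO replicate 1 left out, a choice made after the data were seen, Cldn11 was called at 0.32 (adjusted p = 0.039), together with 9281 of 88360 transcripts in place of 12 of 89237. In the libraries that this choice keeps, the Mag-205 share was higher in both WT libraries (11.0% and 13.3%) than in both KO libraries (6.56% and 8.21%), and its part in these calls was not tested. The other 6 genes were not called without that pair, at 0.27 for Cnp (adjusted p = 0.065), 0.18 for Mbp, 0.16 for Mog, 0.12 for Mal, 0.04 for Mobp and -0.01 for Mag.

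Cnp, the cyclic nucleotide phosphodiesterase of non-compact myelin, was at 90.9, 98.1 and 86.7 CPM in WT and 97.9, 106 and 110 CPM in KO mRNA. KO replicate 1 fell just within the WT range and the others lay above it. The log2 fold change was 0.26 (-0.07 to 0.59, adjusted p = 0.90). Mal mRNA was at 123, 126 and 116 CPM in KO brain, inside the WT span of 99.5 to 137 CPM, with a log2 fold change of 0.17 (-0.20 to 0.54).

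Mog, the surface protein, was at 36.8, 42.3 and 40.3 CPM in WT and 41.9, 44.0 and 39.2 CPM in KO, and the groups overlapped. Its log2 fold change was 0.15 (-0.13 to 0.42). Mobp, the small basic protein of compact myelin, was at 27.6, 32.3 and 33.6 CPM in WT and 26.7, 26.3 and 31.7 CPM in KO, a log2 fold change of -0.06 (-0.37 to 0.25).

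Mag, the sialic acid binding adhesion protein that faces the axon, was at 68.0, 64.0 and 93.9 CPM in WT mRNA and 88.3, 59.4 and 64.0 CPM in KO mRNA. The 2 libraries at the top were WT replicate 3 and KO replicate 1, those that also had the highest share of reads on the short rows. The log2 fold change of Mag-207 was -0.02 (-0.37 to 0.33). Among the 8 rows of Mag it went from 0.09 on Mag-203 to -0.52 on Mag-208, a row at which the standard error was 0.38, and none was called.

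**Figure D3:**
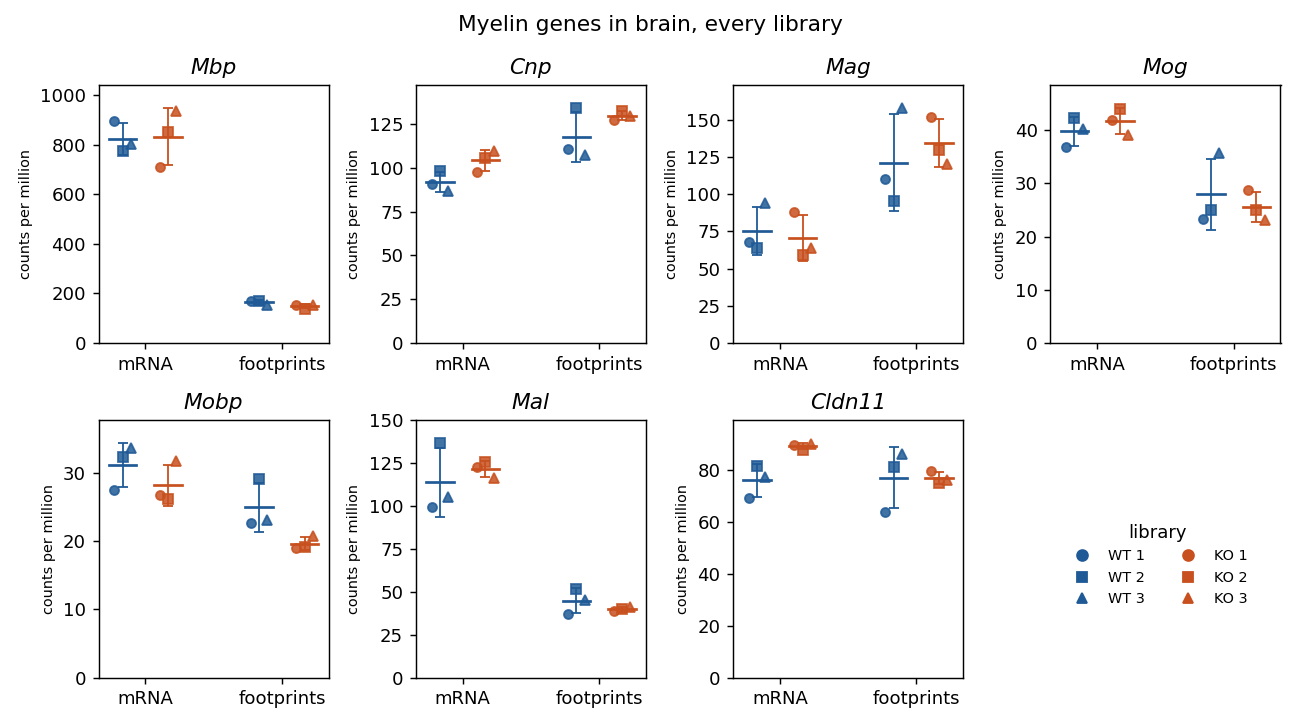
CPM of the 7 myelin genes in brain mRNA and footprints, with a point for each WT (blue) and KO (orange) library and bars for the mean and SD of 3 libraries. WT and KO overlap in all panels except Cldn11 mRNA (69.2 to 81.5 against 87.7 to 89.9 CPM) and Mobp footprints (22.7 to 29.2 against 19.0 to 20.8 CPM). The share of all transcripts whose groups separate in this way was not counted, so a separation by itself does not set a gene apart.

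Footprints were compared next, to ask whether ribosomes on these mRNAs changed in number. No member was called (0 of 7) where 0.0345% of 81112 transcripts were. An unadjusted p under 0.05 was found for 1 of the 7 and for 10211 of all 81112 transcripts. DESeq2 called 0 of 7 as well. The median log2 fold change was -0.12 against -0.01 over all transcripts, with 3 genes positive and 4 negative. That median rested on single libraries, being 0.098 without WT replicate 3 (4 positive) and -0.0052 without WT replicate 2, and it was -0.048 without KO replicate 3. Mobp was the furthest from 0, at 22.7, 29.2 and 23.2 CPM in WT and 19.0, 19.2 and 20.8 CPM in KO. All KO libraries were below all WT libraries, and the log2 fold change was -0.32 (-0.59 to -0.04) with an unadjusted p of 0.028 and an adjusted p of 0.34. On 6 of its 7 rows the value lay between -0.33 and -0.29, and on Mobp-205 it was -0.23. These rows share reads and are not independent.

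Mbp footprints were at 170, 169 and 153 CPM in WT and at 151, 139 and 153 CPM in KO. All KO libraries were below the WT mean, yet the groups overlapped, and the log2 fold change was -0.13 (-0.36 to 0.09, adjusted p = 0.63). Mal footprints were at 37.3, 51.8 and 45.1 CPM in WT and 38.6, 39.8 and 41.3 CPM in KO, a log2 fold change of -0.14 (-0.42 to 0.14). Cnp gave 111, 134 and 108 CPM in WT and 127, 133 and 130 CPM in KO, a log2 fold change of 0.16 (-0.09 to 0.42). In each of these genes the KO values lay closer together than the WT values or within them.

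Cldn11, whose mRNA had separated by genotype, did not separate in footprints, with 63.6, 81.2 and 86.0 CPM in WT and 79.5, 75.1 and 76.1 CPM in KO. Its log2 fold change was 0.02 (-0.25 to 0.29, adjusted p = 0.97). Mag footprints ranged from 95.4 to 158 CPM in WT and from 121 to 152 CPM in KO, a log2 fold change of 0.17 (-0.18 to 0.51), and Mog footprints from 23.3 to 35.7 and from 23.1 to 28.7 CPM, a log2 fold change of -0.12 (-0.45 to 0.21). For both genes WT replicate 3 was the highest of the 6 libraries.

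The change in TE between genotypes was read from an interaction term in a joint fit of both assays. No member was called (0 of 7), nor was any of 98861 transcripts (0%). None of the 7 had an unadjusted p under 0.05, while 4797 of all transcripts did. DESeq2 called 18 transcripts and 0 of the 7. The log2 changes were -0.30 for Mal, -0.28 for Cldn11, -0.25 for Mobp, -0.24 for Mog, -0.22 for Mbp, -0.08 for Cnp and 0.20 for Mag, with adjusted p between 0.88 and 0.97. The median was -0.24 against 0.01 over all transcripts, and 6 of 7 were negative. Some lists of other cell types were also negative for the most part, with medians of -0.22 for astrocyte markers (6 of 8 negative), -0.16 for neuron markers (7 of 10) and -0.14 for microglia markers (6 of 7). Others were not, with medians of 0.05 for vessel endothelium markers (2 of 5 negative) and 0.08 for choroid plexus markers (2 of 5). The median of the 7 genes was -0.13 without KO replicate 3 of RNA-seq, -0.16 without WT replicate 2 of Ribo-seq and -0.12 with counts summed per gene. Without WT replicate 3 and KO replicate 1 of RNA-seq, 1688 of 91879 transcripts were called in TE and still 0 of the 7, whose values lay between -0.34 and 0.19. The 95% intervals from all libraries were wide, from -0.77 to 0.18 for Mal and from -0.66 to 0.23 for Mbp.

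**Figure D4:**
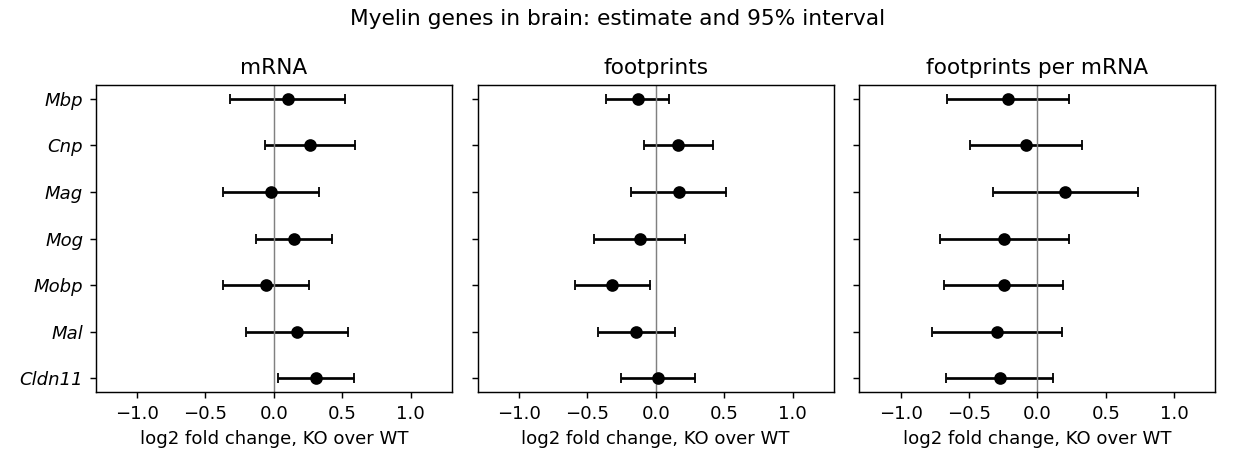
Log2 fold change of KO over WT in brain for mRNA, footprints and footprints per mRNA, with points for the estimates and bars for the 95% intervals of edgeR's quasi-likelihood fit over 3 libraries per group and assay. The intervals of Cldn11 mRNA (0.03 to 0.59) and Mobp footprints (-0.59 to -0.04) leave out 0, and none of the 21 estimates was called after adjustment.

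The other genes of the myelin programme were read in the same fits, and none of them was called in brain in mRNA, footprints or TE. Over all transcripts the median was -0.02 in mRNA and -0.01 in footprints, and the share of positive values was not counted. The mRNA median of the 7 members fell to 0.052 with 1 transcript per gene and 0.033 with counts summed per gene. The lists here and below were not read in those fits. Of 14 other membrane and junction proteins, 13 had a positive log2 fold change in mRNA (median 0.14) and 6 in footprints (median -0.03). Gpm6b, a membrane glycoprotein, was at 0.12 in mRNA and -0.13 in footprints. Of 8 enzymes and carriers of myelin lipids, 8 were positive in mRNA (median 0.08) and 4 in footprints (median -0.04), with Cers2, a ceramide synthase, at 0.03 and -0.24 and Ugt8a, which makes galactosylceramide, at 0.14 and 0.16. Of 15 genes of cholesterol synthesis, 14 were positive in mRNA (median 0.15) and 13 in footprints (median 0.06), with Hmgcs1 at 0.18 and 0.25.

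Regulators and stage markers gave a like picture. Of 12 transcription and RNA regulators of oligodendrocytes, 10 were positive in mRNA (median 0.08) and 4 in footprints (median -0.04), Hnrnpa2b1, which binds the transport signal of Mbp mRNA, being at 0.08 and 0.04 and Olig1 at 0.18 and -0.23. Of 10 genes of progenitors and newly formed oligodendrocytes, 9 were positive in mRNA (median 0.16) and 7 in footprints (median 0.12), with Bcas1 at 0.13 and 0.08 and Tnr at 0.23 and 0.16. Of 10 further genes of mature cells, 9 were positive in mRNA (median 0.26) and 6 in footprints (median 0.09), with Trf, which encodes transferrin, at 0.14 and -0.02 and Apod at 0.03 and -0.13. Of 5 genes of peripheral myelin, 4 could be tested in mRNA, of which 2 were positive (median 0.01), and 1 in footprints, Pmp22, at 0.28 and 0.08. Ncmap, tested in mRNA alone, was at -0.24.

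Markers of other cells of the brain were read in the same way, and none was called. In mRNA 8 of 8 astrocyte markers were positive (median 0.22, with Slc1a2 at 0.23 and Aldoc at 0.34), as were 7 of 7 microglia markers (median 0.19, with Csf1r at 0.07) and 8 of 10 neuron markers (median 0.15, with Snap25 at 0.21 and Syt1 at 0.23). The summed level of the 8 astrocyte markers was 1138 to 1160 CPM in WT and 1271 to 1325 CPM in KO mRNA, while that of the 7 myelin genes was 1227 to 1287 in WT and 1175 to 1385 CPM in KO. Positive mRNA values were thus not particular to myelin genes. The 5 vessel endothelium markers were all negative in mRNA (median -0.67, with Flt1 at -0.70 and Cldn5 at -0.67) and in footprints (median -0.82), without a call, and their summed mRNA was 26.2 to 39.3 CPM in WT and 15.5 to 26.9 CPM in KO. Of 5 choroid plexus markers 3 were positive in mRNA (median 0.07), with Ttr at 0.32 and Kl at -0.05. The kidney markers summed to under 1 CPM in every brain RNA-seq library, from 0.601 to 0.906 CPM in WT, with Nphs1 at 0.06 and Lrp2 at -0.30 between genotypes. The part of cell composition in the myelin values was not tested.

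The 7 genes did not vary as a block between brain libraries. With CPM on a log2 scale centred over the 6 libraries of an assay, Pearson's r between pairs of members ranged from -0.67 to 0.82 in RNA-seq (median -0.10 over 21 pairs) and from -0.65 to 0.83 in Ribo-seq (median 0.17). The genes whose pattern over the 12 brain libraries was most like the mean of the members were Prkar2a (r = 0.94), Gpx3 (0.92), Eif2ak1 (0.88), Tspan15 (0.88), Rgma (0.88), Srxn1 (0.87), Serpine2 (0.87) and Steap3 (0.87), out of 13954 genes, and none of them is in the lists above. These points share libraries, their depth and their coverage, and the correlations are descriptions.

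Kidney served as the background in which oligodendrocytes are missing. Mal, Cldn11, Cnp and Mbp passed the filter on low counts there (4 of 7), and Mag, Mog and Mobp did not. In kidney RNA-seq 0 of 4 were called, where 0.00992% of 70545 transcripts were. An unadjusted p under 0.05 was found for 1 of the 4 (Mal) and for 11881 of all 70545 transcripts. DESeq2 also called 0. Limma voom with quality weights called 1, Mal, at -0.32 (adjusted p = 0.018), in a fit that called 29361 of 70545 transcripts. In kidney footprints 1 of 4, Mal, was called, where 7.76% of 75266 transcripts were.

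Mal fell in the footprints of KO kidney. It was at 30.4, 31.4 and 29.5 CPM in WT and at 19.7, 24.6 and 22.0 CPM in KO, from 401 to 787 and from 217 to 1046 reads. All KO libraries were below all WT libraries. The log2 fold change was -0.39 (standard error 0.10, 95% interval -0.61 to -0.17, adjusted p = 0.038), and the short row Mal-201 gave -0.46 (adjusted p = 0.029). The call sat close to the threshold: it was lost with DESeq2 (adjusted p = 0.057), with counts summed per gene (0.082), without a filter on low counts (0.060), with the replicate number as a block (0.053), and on leaving out any 1 library other than WT replicate 3, where adjusted p reached 0.074 to 0.16. The direction held in each of these, with values from -0.44 to -0.34.

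Mal mRNA in kidney was at 91.4, 91.4 and 93.2 CPM in WT and 78.2, 52.3 and 65.0 CPM in KO. All KO libraries were again below all WT libraries, the lowest being KO replicates 2 and 3, which had the high share of mitochondrial rRNA. The log2 fold change was -0.34 (-0.68 to -0.01) with an unadjusted p of 0.045 and an adjusted p of 0.29. With KO replicates 2 and 3 left out, chosen after the data were seen, it was -0.18 (adjusted p = 1.00) and rested on 1 KO library, assumed to vary as the WT libraries do. TE of Mal in kidney changed by -0.04 (-0.44 to 0.35, adjusted p = 0.95), and 0 of 4 members and 0% of 89685 transcripts were called in that test, where 17403 had an unadjusted p under 0.05. The count over all transcripts depended on the fit, with 4129 of 68762 called by DESeq2, 27335 of 89685 by limma voom and 16559 of 91865 without KO replicate 1 of RNA-seq.

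In brain the mRNA of Mal gave 0.17 and its footprints -0.14, so both tissues had lower footprint estimates in KO, and no test of the difference between tissues was made. Disome footprints of Mal were at 26.2, 14.9 and 29.6 CPM in WT kidney and 25.0, 14.4 and 17.7 CPM in KO kidney, and the groups overlapped.

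**Figure D5:**
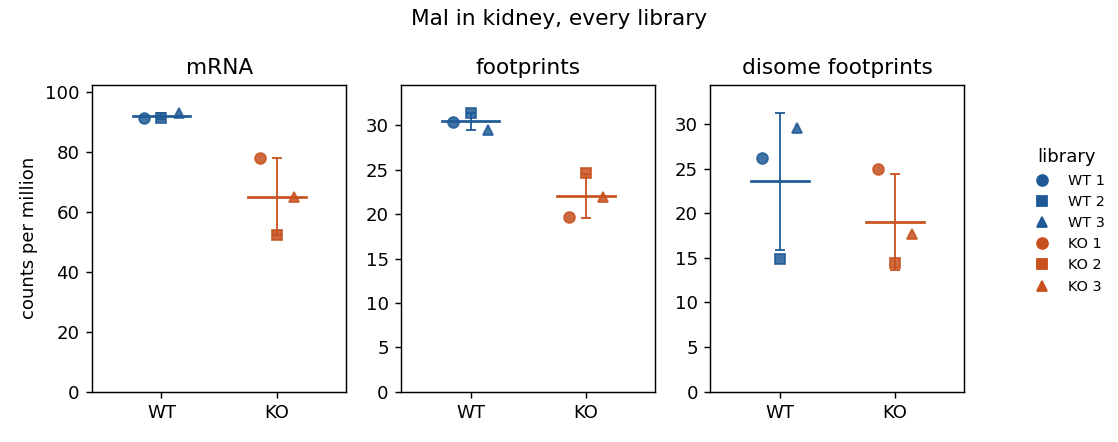
CPM of Mal in kidney mRNA, footprints and disome footprints, with a point for each WT (blue) and KO (orange) library and bars for the mean and SD of 3 libraries. KO lies below WT in mRNA (52.3 to 78.2 against 91.4 to 93.2 CPM) and in footprints (19.7 to 24.6 against 29.5 to 31.4 CPM) and overlaps it in disomes.

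The other members that kidney contains were low and were not called. Cnp footprints were at 3.90, 3.30 and 3.02 CPM in WT kidney and 3.71, 3.16 and 3.15 CPM in KO, a log2 fold change of -0.02 (-0.37 to 0.34). Cldn11 footprints were at 0.502, 0.471 and 0.442 CPM in WT and 0.544, 0.612 and 0.609 CPM in KO, from 6 to 26 reads, and the log2 fold change was 0.39 (-0.26 to 1.04). The groups did not overlap, in the opposite direction to Mal, while Cldn11 mRNA was at -0.30 (-1.35 to 0.75). In the direction of Mal, Mbp mRNA did not overlap either (0.267 to 0.598 CPM in WT, 0.215 to 0.243 in KO). Nor did footprints of Mag, which was below the filter (0.193 to 0.404 against 0.127 to 0.181 CPM). These rest on few reads, and the share of all transcripts that separate was not counted.

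The kidney reads of Mbp were spread over its rows in other proportions than in brain. Mbp-201 and Mbp-205 both begin in the upstream exon that gives the golli forms, and Mbp-205 runs on past the last exon they share, where Mbp-201 splices to the exons at the end of the gene. In WT kidney RNA-seq Mbp-205 had 154, 232 and 148 reads and Mbp-201 had 29, 17 and 12, so that Mbp-205 stood at 531% to 1365% of Mbp-201. In WT brain the same share was 8.85% to 13.8%. In kidney footprints the rows were nearly equal, with 39, 24 and 25 reads on Mbp-205 and 38, 23 and 22 on Mbp-201, and Mbp-209, which begins at the downstream start that gives the classic forms, had 18, 8 and 9. The kidney TE estimate of Mbp, 0.91 (-0.18 to 2.00, adjusted p = 0.34), therefore rests on an RNA count of 10 to 29 reads.

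Around Mal, the listed genes that kidney footprints called in KO were spread over both directions, and their counts stand against the 7.76% called over all transcripts. Among other myelin membrane and junction proteins 1 of 7 tested fell, the tetraspanin Tspan2 (-1.46, adjusted p = 0.019), and among myelin lipid enzymes 1 of 8 fell, Gal3st1 (-0.52, adjusted p = 0.046), which makes sulfatide, a lipid that MAL is known to associate with. In cholesterol synthesis 2 of 15 fell, Fdps (-0.65, adjusted p = 0.024) and Fdft1 (-0.61, adjusted p = 0.027). Pdgfra (0.79, adjusted p = 0.0092) and Cspg4 (0.85, adjusted p = 0.0017) rose out of 6 tested of the progenitor list, and both are also markers of pericytes and fibroblasts. The endothelial Pecam1 (0.57, adjusted p = 0.014; 1 of 5), Csf1r of macrophages (0.42, adjusted p = 0.034; 1 of 6) and Lrp2 of the proximal tubule (0.62, adjusted p = 0.046; 1 of 6 kidney markers) rose too. The summed footprint level of the 6 kidney markers was 3593 to 4218 CPM in WT and 4757 to 5203 CPM in KO, while their summed mRNA was 3804 to 4124 CPM in WT and 3711 to 3833 CPM in KO. In footprints 4 of these 6 markers had a positive log2 fold change, and Aqp2 of the collecting duct (-0.34) and Nphs1 of podocytes (-0.35) a negative one. The part of these values in the fall of Mal was not tested.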

How the data were processed

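The authors trimmed reads with cutadapt, aligned them to mm10 with STAR, allowing multiple mapping, and counted them per transcript with featureCounts of Subread. The authors deposited these whole-number counts without normalization, and neither the strand setting nor the counted region is given in the sources used here, nor whether the mouse counts leave out the codons next to start and stop, as the study's methods state for its own analysis. Genes whose isoforms share reads therefore have rows that are not independent. The 30 mouse columns were used, and 28 per-sample columns of the human table were not.

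Identifiers were matched to GENCODE M21 (141374 of 142604 transcripts). Counts were tested with edgeR 4.0.16 in R 4.3.3 (filterByExpr, TMM, quasi-likelihood F test, Benjamini-Hochberg adjustment over all transcripts tested, threshold 0.05), in separate fits for each tissue and assay, with TE as the interaction of assay and genotype. Intervals are 95% intervals of the log2 fold change. A floor of 3 counts per library was used for genes at or near 0. Footprints per mRNA were taken over genes with at least 10 counts in every library. The fits were tested on simulated data. DESeq2 1.42.0 and limma 3.58.1 served as alternatives, with other filters, scalings, transcript choices, blocks and single libraries left out. The 2 alternatives that leave out a pair of RNA-seq libraries were added after seeing the data. Likeness between genes used log2 of CPM plus 0.5, naming the 8 genes with the highest r to the mean of the members. The genes named were all 7 members and, of each list, those called (at most 3 higher and 3 lower) or, where none was, the 2 with the highest mean brain mRNA, of which some are not reported here. The members and lists were chosen with earlier results of these data known. Precision is limited by 3 libraries per group and, in disome-seq and for low kidney genes, by depth.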

Additional observations from a re-analysis of the deposited data

Results flagged for a closer look

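Mal had reads in every kidney disome-seq library, a measurement that entered no test. The lowest library held 21 reads (KO replicate 3) and the highest 79 (WT replicate 1). Whether disome reads of Mal differ between genotypes was not tested.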

How the results depend on the processing

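With 3 libraries per group, no alternative that kept all libraries called a myelin gene in brain mRNA, footprints or TE. Requiring 10 counts in every library left 3 genes called between the tissues in mRNA and 3 in footprints, since fewer genes are then tested. In brain mRNA 1 gene was called without WT replicate 3 and KO replicate 1, and in kidney mRNA 1 with limma voom. In kidney footprints 0 were called with DESeq2, with counts summed per gene, without a filter and with the replicate block, and 0 to 1 on leaving out a library. The cause was not tested. Replicate numbers did not pair WT with KO (r of deviations from -0.41 to 0.51), and the block took the kidney footprint call of Mal away (-0.39, adjusted p = 0.053). The same r was read between RNA-seq and Ribo-seq libraries that share a number. Brain gave 0.18, 0.46 and 0.23 for WT and -0.0057, -0.081 and 0.10 for KO. For kidney the values were 0.14, 0.23 and 0.22 (WT) and 0.12, 0.11 and 0.14 (KO). Whether a shared number stands for 1 animal was not tested, and the main TE fits left the assays unpaired. A block joining like-numbered libraries of both assays called 0 transcripts in TE in either tissue.

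Signs turned for estimates close to 0. In brain mRNA Mag was 0.091 on its transcript with the highest count and Mobp 0.079 with limma voom and 0.037 without the pair. In brain footprints Cldn11 was -0.00017 with library size alone. Brain TE of Cnp was 0.026 with 1 transcript per gene and 0.061 summed. In kidney mRNA Cnp was 0.20 and Mbp 0.10 on the highest transcript, and Cnp 0.14 without KO replicates 2 and 3. Kidney footprints of Cnp were 0.0031 with DESeq2, 0.21 summed, 0.026 without a filter, 0.046 with the block and 0.25 on the highest transcript. Kidney TE of Mal was 0.071 with 1 transcript, 0.068 summed and 0.036 with library size alone, and that of Cnp -0.10 without the pair.

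On leaving out 1 library, ranges that crossed 0 were -0.095 to 0.22 for Mal mRNA between tissues, -0.13 to 0.11 for Mag, -0.020 to 0.26 for Mbp and -0.18 to 0.039 for Mobp in brain mRNA, -0.11 to 0.10 for Cldn11 and -0.25 to 0.10 for Mog in brain footprints, -0.19 to 0.043 for Cnp in brain TE, -0.30 to 0.14 and -0.084 to 0.076 for Cnp in kidney mRNA and footprints, and -0.10 to 0.34 for Cnp and -0.15 to 0.057 for Mal in kidney TE.

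Counts of calls over all transcripts moved more. Limma voom called 171 in brain mRNA, 112 in brain footprints and 29361 in kidney mRNA, and DESeq2 23, 359 and 540.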
